A study of Mus musculus with 18 samples.

Results

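Interleukin-10, interleukin-24 and interleukin-21 (genes Il10, Il24 and Il21) and the chains of the IL-10 receptor (Il10ra and Il10rb) were followed through all 18 RNA sequencing libraries of a study of memory T helper 2 (Th2) cells, eosinophils and lung. The 5 genes were chosen by name, as a group of cytokines and receptors, out of 23284 gene symbols in the mouse tables and 25410 in the human ones. Levels are in FPKM, which counts fragments per length of transcript and per size of library, so that genes can be compared.

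The study is about memory Th2 cells that make amphiregulin, a ligand of the epidermal growth factor receptor, and about eosinophils and airway fibrosis. The libraries fall into 6 groups of 3. Memory Th2 cells selected for high ST2, the receptor of the alarm cytokine IL-33, were cultured for 3 days with IL-2 alone (libraries 1, 3 and 5) or with IL-2 and IL-33 (libraries 2, 4 and 6). Eosinophils were cultured for 3 days without or with amphiregulin, each as numbers 2, 3 and 4. Whole lung came from OVA-treated wild-type mice and from OVA-treated mice titled dGATA and labelled knockout, each as numbers 1, 2 and 3. The labels give the strain BALB/c for every sample and no age, do not spell out the dGATA allele, and do not say whether libraries of a group came from separate animals, cultures or donors. The p-values therefore measure only the spread between these libraries, which may be technical. The study's design text speaks of HDM where the lung labels say OVA, and no untreated lung was analysed here.

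The eosinophil samples are labelled as mouse, yet their tables list human gene symbols and human coordinates, and here they are treated as human. Markers of several cell types were present in them. CCR3 and SIGLEC8, surface receptors of human eosinophils, were at 28.5 to 137 and 13.6 to 72.9 FPKM. Of the other eosinophil markers PRG2 was at 8.63 to 138 FPKM, IL5RA at 1.41 to 10.6 FPKM and EPX, a granule gene, at 0 to 23.6 FPKM. Beside them the 5 neutrophil markers summed to between 6735 and 19798 FPKM and the 8 macrophage and monocyte markers to between 174 and 1111 FPKM. Nearly all of the neutrophil sum was S100A8, at 2882 to 8273 FPKM, and S100A9, at 3814 to 11391.5 FPKM. The other neutrophil markers were far lower, with CSF3R at 17.4 to 104, CXCR2 at 5.59 to 21.7 and MPO at 1.38 to 31.7 FPKM. The sum is therefore no measure of the share of neutrophils. In the Th2 libraries the 8 T cell markers summed to between 1334 and 2324 FPKM, the 5 B cell markers each stayed below 1 FPKM, and of the 8 macrophage markers Cd68 alone was above 1 FPKM, with C1qa at 0 in all 6 libraries. In the lungs the 5 eosinophil markers summed to between 18.5 and 27.8 FPKM in wild type and between 6.35 and 9.18 FPKM in dGATA. Of these Ccr3, an eosinophil receptor, was at 4.53 to 5.88 FPKM in wild type and 0.0493 to 0.252 FPKM in dGATA. Prg2 and Epx were also lower in every dGATA lung, while Il5ra and Siglec5 overlapped between the groups. Ccr3 is not read from eosinophils alone, as it was at 5.68 to 7.95 FPKM in the Th2 libraries with IL-33. Library dGATA 1 stood apart, with a macrophage marker sum of 206 FPKM against 616 and 1059 FPKM in the other dGATA lungs and 620 to 717 FPKM in wild type. Th2 libraries 5 and 6 also stood apart from libraries 1 to 4 of their groups: their titles spell ST2 high differently, and the spread of the log2 ratio between library pairs of a group was 0.229 to 0.277 where 5 or 6 took part, against 0.08 for libraries 1 and 3 and 0.164 for libraries 2 and 4.

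IL-10 is the founding member of a cytokine family that also holds IL-19, IL-20, IL-22 and IL-24. It binds a receptor of the IL-10Rα chain, which is particular to IL-10, and the IL-10Rβ chain, which IL-22, IL-26 and the type III interferons use too, and it signals through Jak1, Tyk2 and Stat3 to dampen macrophages and dendritic cells. IL-24 does not use these chains but signals through IL-20 receptor chains that sit mainly on epithelium, and IL-21, a cytokine of the IL-2 family made by activated helper T cells, binds IL-21R with the common γ chain and induces Il10 in T cells. Th2 cells are a known source of both IL-10 and IL-24 in the mouse.

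In the mouse tables, on build mm10, Il24 lies at chr1:130882074-130887411 and Il10 at chr1:131019845-131024970, 132.4 kb apart, with Il20 and Il19 between them. Il21 lies at chr3:37222759-37232618, Il10ra at chr9:45253839-45269146 and Il10rb at chr16:91406235-91425834. Each position is the span of the whole gene as the files list it. A table of RefSeq promoters (GRCm38.p6) matched 1 of the 5 members, Il21. T cell cytokine promoters are classically read by NFAT, whose part in the Il21 values was not tested. The 250 bases before the annotated start of Il21, the only member matched, are shown. They lie at chr3:37232637-37232886, minus strand, and capitals mark the NFAT core GGAAA or its complement TTTCC and a TATA-type box, ATAAATA.

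Il21 promoter: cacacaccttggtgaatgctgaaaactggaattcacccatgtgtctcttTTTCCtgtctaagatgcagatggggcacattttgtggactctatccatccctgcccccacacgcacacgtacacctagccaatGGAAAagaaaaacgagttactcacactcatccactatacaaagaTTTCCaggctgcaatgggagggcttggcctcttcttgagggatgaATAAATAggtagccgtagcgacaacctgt

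The NFAT core occurred 3 times, beginning 201, 118 and 74 bases before the annotated start, and 55.6% of 32851 promoter windows hold at least 1 copy on either strand. The TATA-type box began 29 bases before the start, a motif present in 5.17% of the windows. The letters TTCNNNGAA, a STAT-type site present in 7.02% of windows, did not occur in this window on either strand. Nor did the AP-1-type site TGAGTCA (4.46% of windows) or, for GATA factors, AGATAA (9.99% of windows).

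All 5 genes were detected in each of the 6 Th2 libraries. Il10 was the member that differed most between the cultures. Its level was 301, 309 and 42.5 FPKM in libraries 1, 3 and 5 with IL-2 alone, and 3196, 2838 and 2546 FPKM in libraries 2, 4 and 6 with IL-33. The lowest IL-33 library thus lay far above the highest IL-2 library, and library 5 was low within its own group. The mean rose 13.2-fold, from 217 ± 152 to 2860 ± 325 FPKM (SD, n = 3 each), a log2 difference of 4.16 with an SE of 0.72 (95% interval 2.47 to 5.85; limma on log2(FPKM + 1), Benjamini-Hochberg adjusted p = 0.00452). It was the 12th largest rise among 10296 tested genes. Il10 moved from rank 216, 224 and 1823 by FPKM to rank 16, 15 and 16 of all 23284 symbols.

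Il24, whose product acts mainly on epithelium, was already abundant without IL-33. It stood at 957, 1017 and 440 FPKM with IL-2 alone and at 2282, 2071 and 1896 FPKM with IL-33, so the groups did not overlap and library 5 was again the lowest. The mean rose 2.59-fold, from 805 ± 317 to 2083 ± 193 FPKM (log2 difference 1.46, SE 0.31, limma adjusted p = 0.0106). By FPKM it ranked 60, 59 and 160 with IL-2 alone and 23, 23 and 20 with IL-33. Il24 was thus above Il10 in every IL-2 library and below it in every IL-33 library. The ratio of Il10 to Il24 within a library was 0.314, 0.304 and 0.0965 with IL-2 alone and 1.40, 1.37 and 1.34 with IL-33. These ratios did not overlap, and the mean log2 ratio was higher by 2.71 with IL-33 (2-sided exact permutation test, p = 0.1, the smallest that 3 against 3 libraries can give).

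Il21, the cytokine of follicular helper cells, was far less abundant. It was at 12.2, 14.9 and 3.87 FPKM with IL-2 alone and at 22.5, 20.4 and 63.5 FPKM with IL-33. The groups did not overlap, and library 6 was far above libraries 2 and 4. The mean was 3.44-fold higher, 10.3 ± 5.74 against 35.4 ± 24.3 FPKM (log2 difference 1.66, SE 0.56, 95% interval 0.34 to 2.98, limma adjusted p = 0.0491). That p is just inside the threshold of 0.05, and the call was lost in 11 of 18 other settings. Without library 6 the log2 difference was 1.15 (limma adjusted p = 0.0939), and without library 5 it was 1.14 (limma adjusted p = 0.103). With both left out, over libraries 1 to 4, it was 0.63 and called (SE 0.10, limma adjusted p = 0.00186). Since Il10 rose more, the ratio of Il21 to Il10 went the other way, from 0.0406, 0.0481 and 0.0909 to 0.00704, 0.00718 and 0.0249 (exact permutation p = 0.1).

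**Figure D1:**
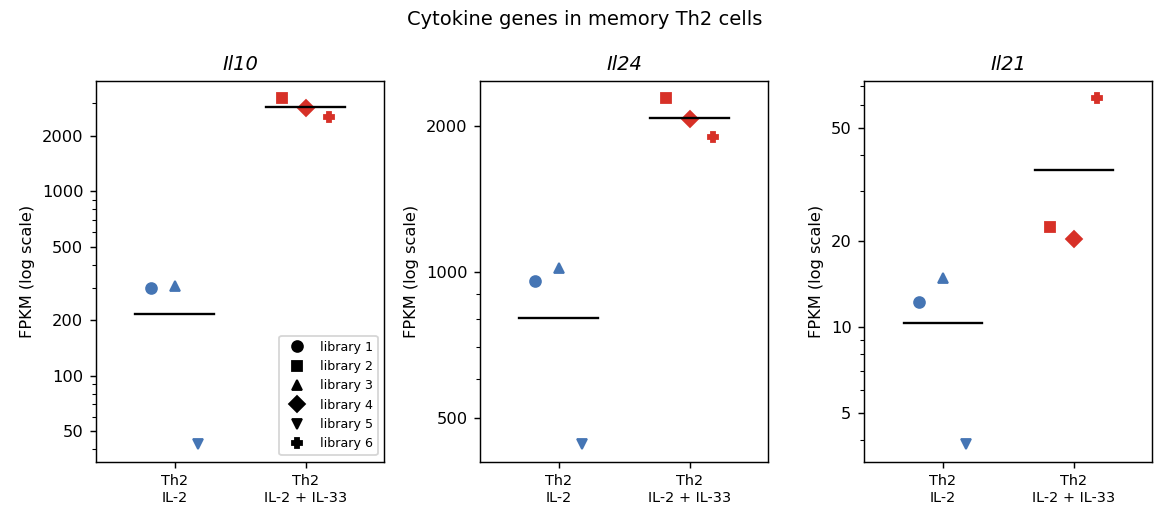
FPKM of Il10, Il24 and Il21 (log axis) in the 6 Th2 libraries, with a bar at each group mean. The IL-33 libraries of Il10 lie between 2546 and 3196 FPKM and those with IL-2 alone between 42.5 and 309, and library 6 is the highest for Il21.

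Library 5 carried more Th1 RNA than the other Th2 libraries with IL-2 alone. The 4 Th1 markers, Ifng, Tbx21, Cxcr3 and Il12rb2, summed to 85.2 and 87.0 FPKM in libraries 1 and 3, to 311 FPKM in library 5, and to 12.6, 12.1 and 72.0 FPKM in libraries 2, 4 and 6. Ifng itself was at 32.7 and 35.0 FPKM in libraries 1 and 3 against 198 FPKM in library 5. Without library 5 the log2 difference of Il10 was 3.22 and that of Il24 was 1.07, so the rise of both was smaller and stayed called. The part of the Th1 RNA in these values was not tested. Foxp3, the defining factor of regulatory T cells, another source of IL-10, was at 0.631, 0.351 and 0.114 FPKM with IL-2 alone and 1.10, 1.10 and 0.919 FPKM with IL-33. In bulk libraries like these, fewer cells of a type and less RNA per cell cannot be told apart.

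Both receptor chains were higher with IL-33, with little spread. Il10ra, the ligand-binding chain, was at 36.0, 36.9 and 42.6 FPKM with IL-2 alone and at 62.3, 64.7 and 64.0 FPKM with IL-33. Its mean rose 1.65-fold, from 38.5 ± 3.6 to 63.7 ± 1.27 FPKM (log2 difference 0.72, SE 0.09, limma adjusted p = 0.00109). Il10rb, the shared chain, was at 7.82, 8.52 and 8.37 FPKM against 16.6, 17.5 and 14.1 FPKM. Its mean rose 1.95-fold, from 8.24 ± 0.368 to 16.1 ± 1.74 FPKM (log2 difference 0.88, SE 0.10, limma adjusted p = 0.000808). The ratio of Il10ra to Il10rb was 4.60, 4.33 and 5.09 with IL-2 alone and 3.76, 3.70 and 4.53 with IL-33, and these ranges overlapped (exact permutation p = 0.2).

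All 5 members were thus called higher with IL-33, in a comparison in which 16.3% of tested genes were called higher and 25.7% lower. Non-overlapping groups with IL-33 higher, which all 5 members had, were found for 21.7% of tested genes. Of the called genes 38.8% were higher, a share that became 55.6% after scaling each library to a common FPKM sum (TPM) and 51.5% after median-of-ratios scaling. The 5 members were called higher under both scalings.

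Around these genes, the rest of the IL-10 family was low in the Th2 cells. Of 8 measured ligand genes of the family, Il10 and Il24 passed the filter of 1 FPKM in at least 3 libraries. Il20 was listed at 0 in 5 of the 6 libraries, and Il19 averaged 0.872 FPKM with IL-2 alone and 0.766 FPKM with IL-33. Il22 averaged 0.340 and 1.29 FPKM, a value made uncertain by the near-identical copy Iltifb. Its groups overlapped, at 0.212, 0.618 and 0.190 FPKM with IL-2 alone and 0.603, 0.446 and 2.81 FPKM with IL-33. The higher mean with IL-33 thus rested mainly on library 6. Il28a and Il28b, which encode type III interferons and are near-identical copies of each other, had groups that did not overlap, with the IL-33 libraries lower. Il28a was at 1.89, 0.868 and 0.892 FPKM with IL-2 alone and was listed at 0 in the 3 IL-33 libraries. Il28b was at 0.695, 0.482 and 0.892 FPKM with IL-2 alone, was listed at 0 in libraries 2 and 4, and was at 0.269 FPKM in library 6. Both were below the filter, and with no filter both were called lower (limma adjusted p = 0.00873 and 0.0198). Of 7 receptor chain genes of the family, Il10ra and Il10rb were the ones tested. Il20ra and Il20rb, which encode the chains that bind IL-24, averaged at most 0.453 FPKM in either culture, and Il22ra1 was listed at 0 throughout. The IL-21 receptor genes were expressed and not called: Il21r, the specific chain, was at 50.3, 51.7 and 31.7 FPKM against 31.6, 33.2 and 44.9 FPKM (log2 difference -0.26, limma adjusted p = 0.352). Il2rg, the common γ chain, was at 682 ± 62.4 and 604 ± 14.1 FPKM (log2 difference -0.17, limma adjusted p = 0.214).

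Among 8 Jak, Stat and Socs genes, 2 rose and 1 fell with IL-33. The median log2 difference of the 8 was -0.20, against -0.11 over all tested genes. For this list and those that follow, the shares over all tested genes are 16.3% higher and 25.7% lower. Socs3, a feedback inhibitor induced by Stat3, was at 37.8, 38.8 and 18.2 FPKM with IL-2 alone and at 115, 132 and 101 FPKM with IL-33 (log2 difference 1.91, SE 0.28, limma adjusted p = 0.00243). Jak3, the kinase bound by the common γ chain, rose from 66.2 ± 6.89 to 107 ± 4.52 FPKM (limma adjusted p = 0.00208). Jak1 fell by 0.32 on the log2 scale (limma adjusted p = 0.0129), a call that was lost under both other scalings. Tyk2, the kinase bound by IL-10Rβ, was at 28.8 ± 6.71 and 20.7 ± 3.47 FPKM (log2 difference -0.44, limma adjusted p = 0.0851). Stat3, through which IL-10 and IL-21 signal, was at 62.4 ± 3.98 and 58.3 ± 4.45 FPKM (log2 difference -0.10, limma adjusted p = 0.41).

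All 12 genes listed as regulators of Il10 in T cells were tested, of which 6 rose and 4 fell, with a median log2 difference of 0.45. Batf, an AP-1 family factor of Th2 cells, was at 136, 147 and 174 FPKM with IL-2 alone and at 318, 310 and 401 FPKM with IL-33 (log2 difference 1.17, SE 0.14, limma adjusted p = 0.00104). Gata3, the lineage factor of Th2 cells, went from 116, 119 and 76.7 FPKM to 213, 240 and 220 FPKM (log2 difference 1.13, limma adjusted p = 0.00279). In these values library 5 was the highest of its group for Batf and the lowest for Gata3. Irf4, which partners with Batf on composite sites, fell from 330 ± 12.5 to 204 ± 20.4 FPKM (limma adjusted p = 0.0021). Ahr, the aryl hydrocarbon receptor, fell from 2.37 ± 0.276 to 0.836 ± 0.161 FPKM (limma adjusted p = 0.00159). Maf, which encodes c-Maf, an activator of Il10 in helper T cells, lies outside the naming rule and was named after its values were seen. It was at 80.1, 75.3 and 22.2 FPKM with IL-2 alone and 207, 235 and 135 FPKM with IL-33 (log2 difference 1.85, SE 0.48, limma adjusted p = 0.0215), and like Il10 it was lowest in library 5. Egr2, another regulator on the list and also named after its values were seen, went the other way. It was at 81.0, 87.8 and 91.0 FPKM with IL-2 alone and 51.6, 54.4 and 67.1 FPKM with IL-33.

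Of 10 genes typical of helper T cells that make IL-21, 8 were tested, 4 rose and 2 fell. Sh2d1a, which encodes the adaptor SAP, was at 2.07, 2.49 and 2.01 FPKM against 12.1, 11.3 and 12.2 FPKM (log2 difference 2.02, SE 0.09, limma adjusted p = 2.33e-05). Tox2, a factor of follicular helper cells, went from 1.17, 1.63 and 0.0762 FPKM to 12.8, 14.3 and 11.4 FPKM (log2 difference 2.91, limma adjusted p = 0.000671). Icos, a co-stimulatory receptor, rose from 309 ± 99.5 to 753 ± 204 FPKM (limma adjusted p = 0.0145). Pdcd1, which encodes the inhibitory receptor PD-1, fell from 73.8 ± 10.6 to 21.1 ± 5.99 FPKM (limma adjusted p = 0.00069). The other gene that fell was Bcl6, a marker of follicular helper cells. It went from 8.40, 7.62 and 12.1 FPKM to 4.65, 4.56 and 6.86 FPKM, without overlap. Under TPM scaling 1 gene of the list was called lower. Cxcr5, the follicle homing receptor that defines such cells, averaged 0.128 and 0.0412 FPKM.

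Genes known as targets of IL-10 in macrophages were read in the same T cells. Of 10 genes that IL-10 induces there, 8 were tested, 6 rose and 1 fell, with a median log2 difference of 0.57. Over all tested genes 16.3% were called higher and 25.7% lower. A response of these T cells to IL-10 was not tested. Socs3 is given above. Nfil3, a basic leucine zipper factor that is also on the list of T cell regulators, was at 20.3, 24.2 and 9.77 FPKM against 72.7, 87.6 and 53.8 FPKM (log2 difference 1.98, SE 0.33, limma adjusted p = 0.00384). Sbno2, a corepressor, rose from 30.2 ± 2.92 to 42.7 ± 2.54 FPKM (limma adjusted p = 0.00748), and Etv3, a transcriptional repressor, fell from 16.4 ± 3.27 to 4.23 ± 0.192 FPKM (limma adjusted p = 0.00018). Of 12 genes that IL-10 represses in macrophages, 5 were tested, 1 rose and 2 fell. Cd86, a co-stimulatory ligand, went from 6.86, 7.5 and 10.1 FPKM to 0.240, 0.207 and 0.217 FPKM (log2 difference -2.89, SE 0.14, limma adjusted p = 2.78e-05). Il6 was at 57.3, 61.5 and 47.5 FPKM against 9.07, 7.0 and 42.0 FPKM (log2 difference -1.89, limma adjusted p = 0.0371), with library 6 close to the IL-2 cultures. Ptgs2, which encodes cyclooxygenase-2, rose from 1.26 ± 0.955 to 14.3 ± 2.44 FPKM (limma adjusted p = 0.00103). Il1a, with 9.07 ± 2.78 and 2.78 ± 4.41 FPKM, did not pass the test (limma adjusted p = 0.0611).

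**Figure D2:**
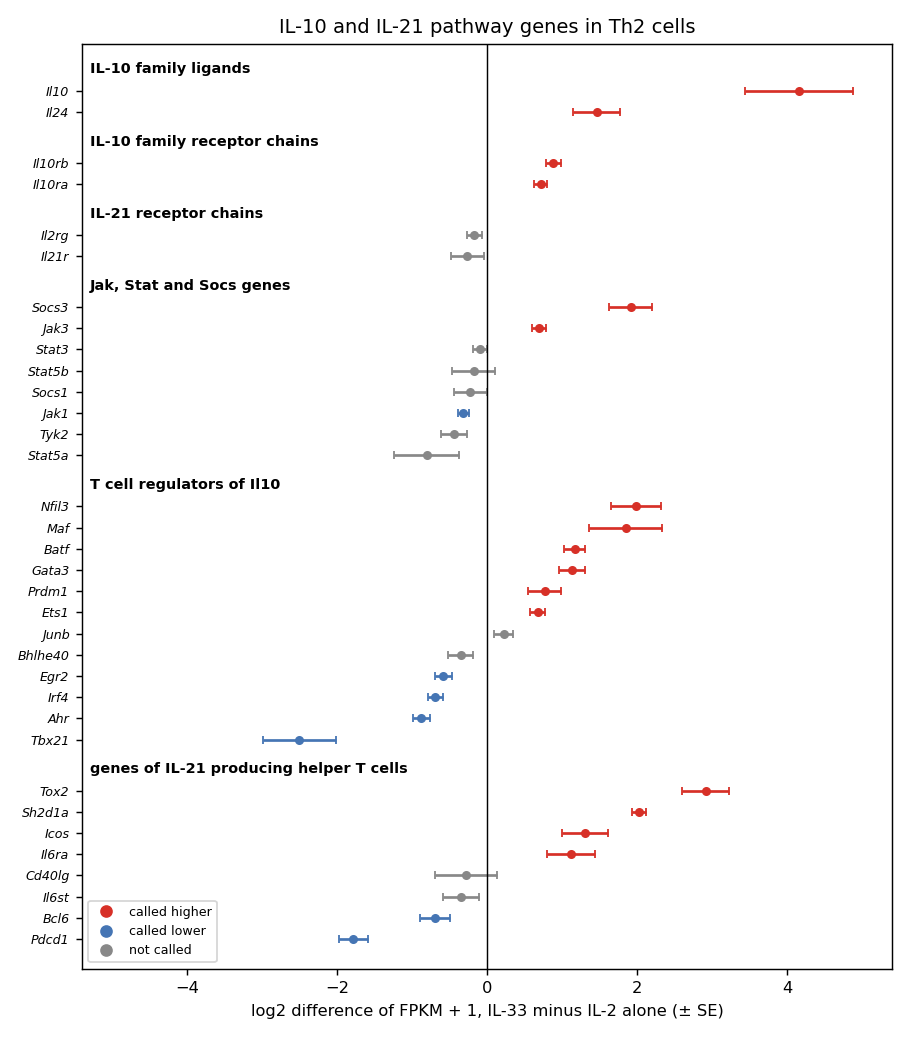
Log2 difference of FPKM + 1 (IL-33 minus IL-2 alone, ± SE) for the tested genes of 6 pathway lists in Th2 cells, red where called higher, blue where called lower, grey otherwise. Il10 has the largest difference, 4.16, and the widest error of the IL-10 family genes, and the regulators of Il10 in T cells lie on both sides of 0.

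Genes beside the members in the genome moved in both directions. On the far side from Il24 the nearest neighbour of Il10 was Mapkapk2, a kinase gene 28.7 kb away, at 302 and 399 FPKM (log2 difference 0.38, limma adjusted p = 0.242). Dyrk3, another kinase gene 103.5 kb away on that side, rose from 4.03 to 6.39 FPKM on average (log2 difference 0.57, limma adjusted p = 0.0233). Beyond it Eif2d, at 24.8 and 27.9 FPKM, and Rassf5, at 82.0 and 65.2 FPKM, were not called (limma adjusted p = 0.191 and 0.0604). Faim3, which encodes an IgM receptor and lies 1.3 kb from Il24, averaged 3.05 FPKM with IL-2 alone and 5.11 FPKM with IL-33 (log2 difference 0.60, limma adjusted p = 0.0111). Pigr, the transporter of polymeric immunoglobulin, averaged 124 FPKM in wild-type lung and at most 0.0374 FPKM in the Th2 cells. The low Il20 and Il19 thus lay between Il24 and Il10, which ranked between 15 and 23 by FPKM in the IL-33 cultures.

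On one side of Il21 the nearest gene with RNA was Il2, 96.8 kb away, which encodes the growth factor of activated T cells that was also added to every Th2 culture. Il2 was at 376, 412 and 1394 FPKM with IL-2 alone and at 33.5, 30.6 and 235 FPKM with IL-33. It fell by 3.24 on the log2 scale (limma adjusted p = 0.0215), while Il21 had the opposite sign. Libraries 5 and 6 were the highest of their groups for Il2, and library 6 was also the highest for Il21. On the other side, all of Cetn4, Bbs12, Fgf2, Nudt6 and Spata5 fell, by 0.43 (Bbs12) to 1.73 (Fgf2) on the log2 scale, and these directions and calls were kept under both other scalings.

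Il10rb sits in a cluster of class II cytokine receptor genes. Ifnar2, a chain of the type I interferon receptor whose listed span ends 0.6 kb from that of Il10rb, averaged 16.4 and 19.4 FPKM (log2 difference 0.23, limma adjusted p = 0.150). Ifnar1, its partner chain, was at 10.6 and 8.11 FPKM (limma adjusted p = 0.110), and Ifngr2, a chain of the interferon-γ receptor, at 12.1 and 17.7 FPKM (log2 difference 0.54, limma adjusted p = 0.0484). Of the neighbours of Il10ra, Amica1, an adhesion molecule gene, fell by 1.25 on the log2 scale (limma adjusted p = 0.000163). The difference of Il10ra from its neighbours was not tested.

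**Figure D3:**
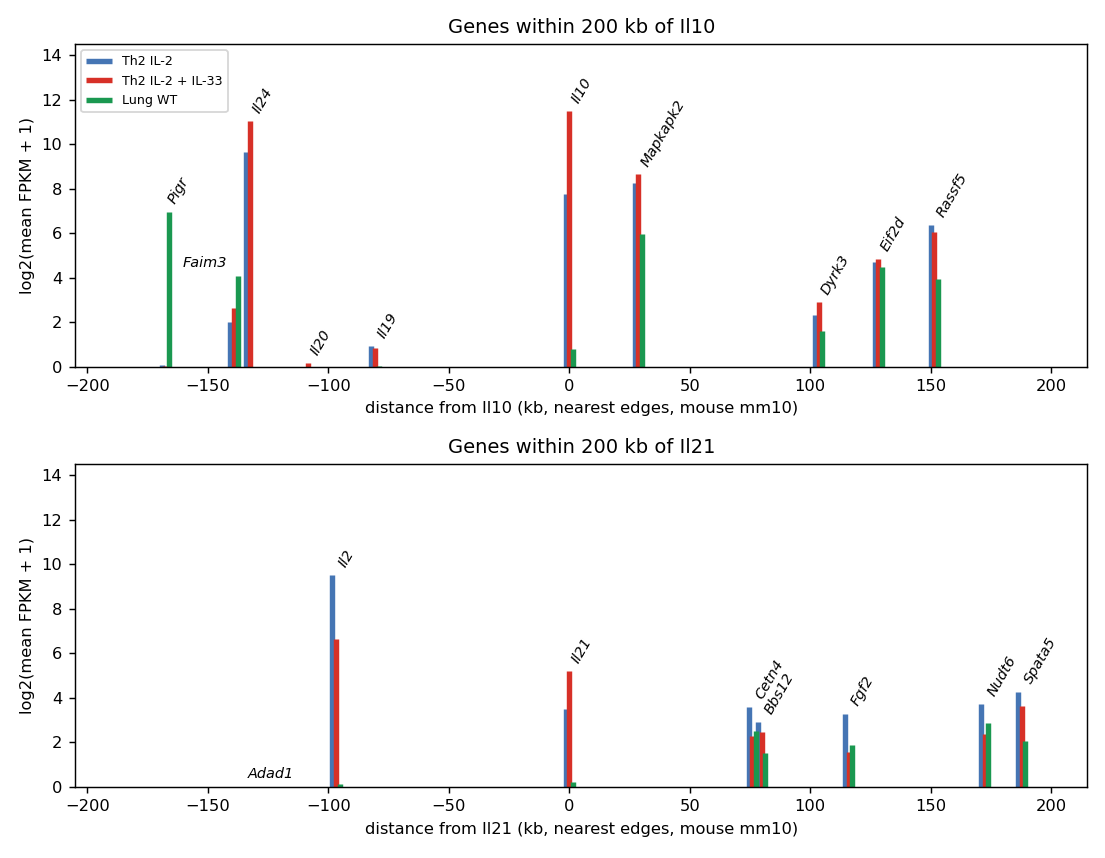
Mean level, as log2(FPKM + 1), of the genes (clone names left out) within 200 kb of Il10 (upper panel) and of Il21 (lower panel) in Th2 cells with IL-2 alone, Th2 cells with IL-33 and wild-type lung, by distance in kb. Il24 and Il10 stand above a silent Il20 and a low Il19, and Il2 is lower with IL-33 where Il21 is higher.

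Over the 4 mouse groups the cytokine genes and Il10ra shared an order, and Il10rb had another. The neighbouring groups in each order were compared in a fit over the 12 mouse libraries. The mean of Il10 ran from 2860 FPKM in Th2 cells with IL-33 over 217 FPKM with IL-2 alone to 0.703 FPKM in wild-type and 0.501 FPKM in dGATA lung. Both upper steps passed (limma adjusted p = 0.000509 and 1.19e-06), and the lungs did not differ beyond their spread (limma adjusted p = 0.962). Il21 had the same order, with 0.159 and 0.0822 FPKM in the lungs (limma adjusted p = 0.0181, 6.01e-05 and 0.979 from the top step down). Il24 was listed at 0 in all 6 lungs. For Il10ra the means were 63.7, 38.5, 12.3 and 8.91 FPKM. Its step between the Th2 cultures missed the threshold in this fit (limma adjusted p = 0.0534), the step to wild-type lung passed (0.000125), and the lungs did not differ beyond their spread (0.559).

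Il10rb, which many tissue cells express, ran from 51.5 FPKM in wild-type over 47.7 FPKM in dGATA lung to 16.1 and 8.24 FPKM in the Th2 cells. Here the lung pair did not differ (limma adjusted p = 0.854), and the steps from dGATA lung to Th2 cells with IL-33 and on to IL-2 alone passed (2.75e-07 and 0.000265). Between wild-type lung and Th2 cells with IL-2 alone 84.4% of 14148 genes were called in that fit, and 82.3% between dGATA lung and Th2 cells with IL-33. Between the Th2 cultures the share was 31.4%, and between the lungs 0.657%. The ratio of Il10ra to Il10rb was 0.267, 0.212 and 0.237 in wild-type lungs, where it was above 3 in every Th2 library.

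**Figure D4:**
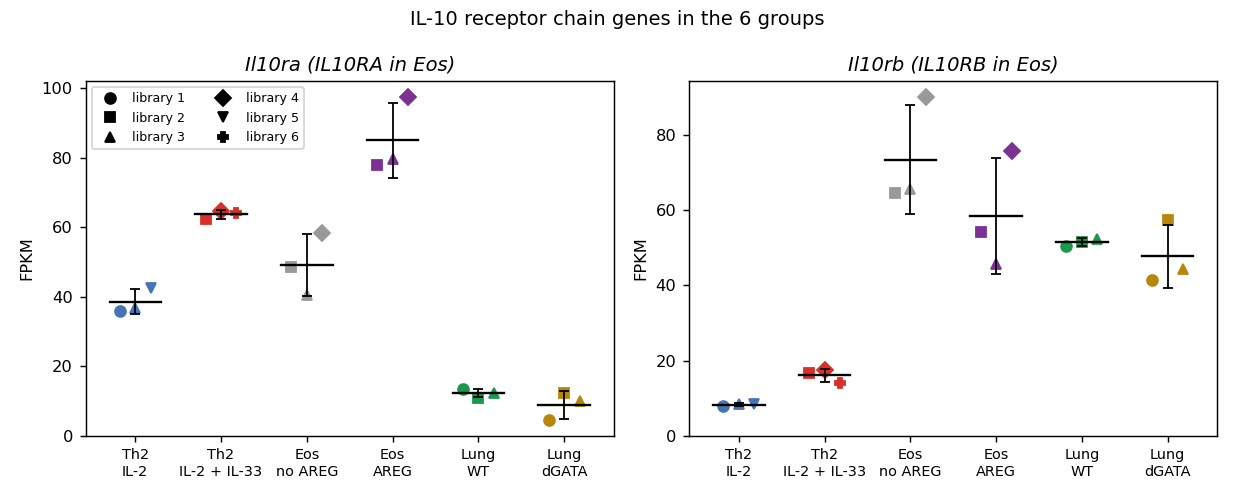
FPKM of Il10ra and Il10rb (human IL10RA and IL10RB in eosinophils) in the 6 groups, each symbol a library, with the mean and SD. Il10ra is lowest in lung and Il10rb lowest in Th2 cells, and IL10RA in eosinophils with amphiregulin, 77.8 to 97.4 FPKM, does not overlap that without.

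In the lungs the question was whether dGATA mice differed from wild type after OVA. Il10 was at 0.443, 0.919 and 0.747 FPKM in wild-type and at 0.0457, 1.05 and 0.406 FPKM in dGATA lungs, overlapping groups below the filter (2-sided exact permutation p = 0.6). Il21 was at 0.284, 0.0841 and 0.108 FPKM against 0.0176, 0.209 and 0.0195 FPKM (exact permutation p = 0.5). Such values rest on very few fragments. Il10ra was at 13.4, 10.9 and 12.4 FPKM in wild-type and at 4.46, 12.3 and 9.98 FPKM in dGATA lungs (log2 difference -0.51, 95% interval -1.30 to 0.27, limma adjusted p = 0.807). Only library dGATA 1 was far below wild type, and without it the log2 difference of Il10ra was -0.13. Beside its low macrophage marker sum, this library had the lowest T cell, dendritic cell and B cell marker sums of the 6 lungs, at 58.8, 25.4 and 41.9 FPKM against at least 91.5, 80.4 and 63.8 FPKM in the others. Its NK cell marker sum of 8.27 FPKM was below the wild-type range of 12.1 to 12.7 FPKM and above the 6.70 FPKM of dGATA 3. The part of these cells in the Il10ra values was not tested. That library was also the lowest for Il10. Il10rb was at 50.4, 51.5 and 52.5 FPKM against 41.5, 57.4 and 44.3 FPKM (log2 difference -0.12, 95% interval -0.44 to 0.20, limma adjusted p = 0.914).

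No member was called in the lung, where limma called 0.0437% of 13727 tested genes higher and 0.051% lower, and 939 genes had an unadjusted p below 0.05. No member's groups were apart, which 4.26% of genes were with dGATA higher and 9.86% with dGATA lower. Of the pathway genes none was called either. Il2rg, the highest IL-21 receptor gene there, averaged 68.9 ± 8.26 and 68.6 ± 23.5 FPKM, and Stat3 50.04 ± 0.973 and 47.8 ± 2.57 FPKM. Ets1, the highest of the T cell regulators, was at 48.1 ± 1.67 and 50.1 ± 4.47 FPKM, and Il6st, which encodes the gp130 chain, at 63.5 ± 4.78 and 53.0 ± 5.97 FPKM. Zfp36, an IL-10 target that destabilises cytokine messages, was at 74.1 ± 7.89 and 64.3 ± 4.99 FPKM, and Il1b at 13.2 ± 3.98 and 10.2 ± 3.40 FPKM.

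In the cultures labelled eosinophils, the comparison is of 3 days with against without amphiregulin. IL10RA was at 48.7, 40.5 and 58.3 FPKM without amphiregulin (numbers 2, 3 and 4) and at 77.8, 79.7 and 97.4 FPKM with it. The groups did not overlap, as for 3.61% of tested genes in that direction, and IL10RA was higher in 3 of 3 equal numbers, as were 17.6%. Its mean was 1.73-fold higher, 85.0 ± 10.8 against 49.2 ± 8.93 FPKM (log2 difference 0.78, SE 0.23, 95% interval 0.23 to 1.34). It did not pass over all genes (limma adjusted p = 0.999), nor with the number as a block (SE 0.16, limma adjusted p = 0.102). When small RNA features were also removed from the blocked fit, an alternative added after seeing the data, it passed (log2 difference 0.84, limma adjusted p = 0.0391), in a fit that called 0.927% of genes higher and 0.539% lower. The summed level of 5 dendritic cell markers was 169, 114 and 201 FPKM without and 307, 294 and 332 FPKM with amphiregulin, so it too was higher in each number with groups that did not overlap. Most of that sum was ITGAX, an integrin that other myeloid cells also carry, and XCR1, a receptor of cross-presenting dendritic cells, was below 1 FPKM in all 6 libraries. The part of such cells in the IL10RA values was not tested.

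IL10RB was at 64.7, 65.6 and 90.3 FPKM without and at 54.1, 45.7 and 75.7 FPKM with amphiregulin. It was lower with amphiregulin in 3 of 3 numbers, as were 14.9% of genes, but the groups overlapped, where 3.09% of genes had lower groups that did not (log2 difference -0.34, 95% interval -0.99 to 0.32, limma adjusted p = 0.999, with the block 0.511). The ratio of IL10RA to IL10RB, 0.753, 0.618 and 0.646 without amphiregulin, was 1.44, 1.74 and 1.29 with it. These did not overlap (mean log2 ratio higher by 1.14, exact permutation p = 0.1). IL10RB exceeded IL10RA in each library without amphiregulin and was below it in each library with it.

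**Figure D5:**
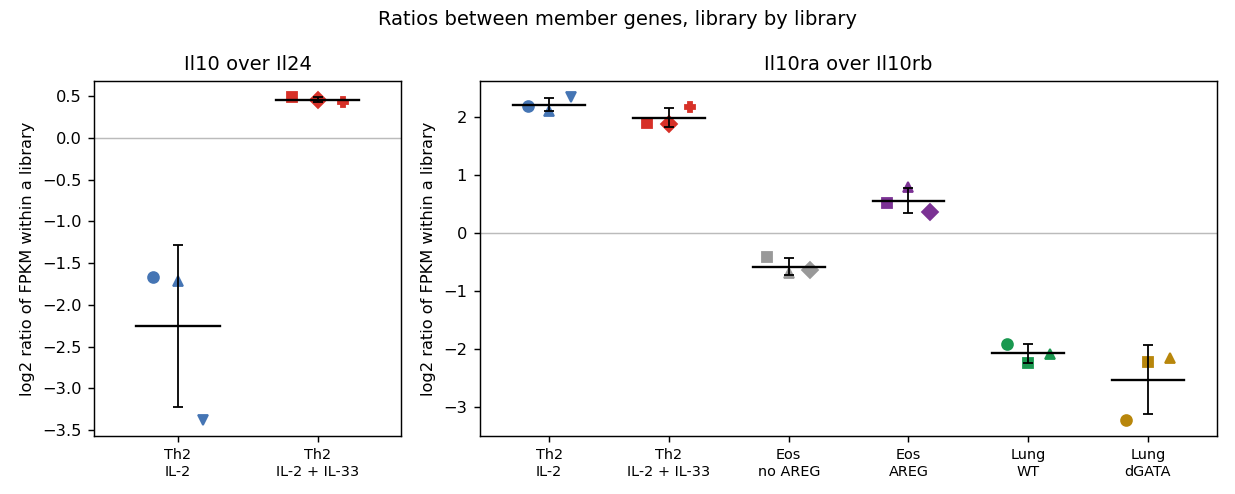
Log2 ratio of FPKM within each library, Il10 over Il24 in Th2 cells (left) and Il10ra over Il10rb in all 6 groups (right), with mean and SD. The Il10 to Il24 ratio is below 0 with IL-2 alone and above 0 with IL-33, and the receptor ratio changes sign between the eosinophil cultures.

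IL10 and IL24 were low in the eosinophil cultures and IL21 was listed at 0 in all 6. IL10 was at 4.18, 5.31 and 0.324 FPKM without and at 0.622, 1.63 and 0 FPKM with amphiregulin (log2 difference -1.11, SE 0.67, limma adjusted p = 0.999, with the block 0.178). It was lower with amphiregulin in each number. Markers of monocytes and macrophages, which are strong sources of IL-10, went both ways. CD14 was at 246, 221 and 14.3 FPKM without and at 10.8, 12.5 and 0.852 FPKM with amphiregulin, and CD163 at 29.3, 35.7 and 5.03 against 1.94, 2.94 and 0.361 FPKM. MRC1, the mannose receptor of alternatively activated macrophages, was higher with amphiregulin in each number, at 2.17, 2.75 and 0.535 against 55.3, 93.8 and 16.8 FPKM. So were CSF1R, the receptor of a macrophage growth factor, at 58.1, 54.6 and 6.53 against 63.4, 75.5 and 9.68 FPKM, and C1QB, a complement chain, at 63.3, 23.5 and 0.825 against 83.7, 125 and 4.03 FPKM. The summed level of all 8 macrophage markers was 1111, 985 and 174 FPKM without and 559, 905 and 179 FPKM with amphiregulin, so number 4 was lowest in both. All 8 were above 0 in every library. The 8 T cell markers summed to 428, 286 and 191 FPKM without and to 241, 175 and 105 FPKM with amphiregulin, lower in each number like IL10. The part of these cells in the IL10 and IL10RA values was not tested.

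IL24 was at 2.98, 2.68 and 0.454 FPKM without and at 1.91, 0.127 and 0.686 FPKM with amphiregulin (log2 difference -0.65, limma adjusted p = 0.999). Its listed span overlaps that of FAIM3, at 37.5 and 19.8 FPKM on average, so reads of the genes may not be told apart. Without number 4, the fit with the block called IL10 (log2 difference -1.47, limma adjusted p = 0.00114) and IL24 (-1.08, 0.0284) lower. That alternative was added after seeing the data and called 505 of 13069 genes higher and 304 lower. It left out the number in which IL24 was higher with amphiregulin. Without number 2 IL10 was not called (-0.83, limma adjusted p = 0.558), nor was IL24 without number 3 (-0.12, limma adjusted p = 0.858).

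No member was called in the eosinophils over all 6 libraries without the block. There limma called 0.0317% of 12617 tested genes higher and 0.174% lower, and 392 had an unadjusted p below 0.05; with the block it called 0.531% and 0.587%. After rescaling to TPM the median log2 difference of all genes moved from 0.02 to 0.20, and IL10RA stood at 1.00 and IL10RB at -0.13. No pathway gene was called without the block. With the block SOCS1, an inhibitor of Jak kinases, EGR2, a T cell regulator of IL10, and IL1RN, the IL-1 receptor antagonist that IL-10 induces, rose, and CD163 fell. SOCS1 was at 23.1, 23.5 and 32.9 FPKM against 55.9, 52.5 and 130 FPKM (limma adjusted p = 0.0315 with the block, 0.984 without). IL1RN was at 135, 180 and 10.8 FPKM against 373, 518 and 59.3 FPKM (0.0192 with the block, 0.999 without), again lowest in number 4.

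The genes whose profiles were most like those of the members were ranked by the root mean square difference of centred log2(FPKM + 1) values, a description over 12 mouse libraries in which cultured T cells and whole lung set most of the pattern. Nearest to Il10, at 0.90, was Il5, the eosinophil growth cytokine, at 258 ± 10.2 FPKM with IL-2 alone and 1563 ± 302 FPKM with IL-33. After it came Akr1c18 (0.93), a steroid-metabolising enzyme gene, Il2ra (1.2), the IL-2 receptor α chain, Cyp11a1 (1.27), the first enzyme of steroid synthesis, and Icos (1.43). Cyp11a1 rose from 141 ± 25.4 FPKM with IL-2 alone to 507 ± 21.1 FPKM with IL-33 on average. Nearest to Il24 were Il2ra (0.63) and the Th2 cytokines Il4 (0.66), Il5 (0.83) and Il13 (1.07), followed by Gzmb (1.31), which encodes granzyme B.

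Il21 was nearest to Glrx (0.41), a redox enzyme gene, Ecm1 (0.43), which encodes a secreted matrix protein of Th2 cells, Obfc2a (0.48), Gpr174 (0.49) and Gpr171 (0.50). Il10ra had closer matches, led by Myo1g (0.15), a myosin gene of blood cells, with Sash3 (0.18), Galnt6 (0.22), Runx3 (0.23) and Jak3 (0.23). Il10rb had the closest of all, Ctsc (0.10), which encodes the protease cathepsin C, at 21.2 and 41.7 FPKM in Th2 cells and 144 and 125 FPKM in the lungs, followed by Slc31a2 (0.14), Tpd52 (0.16), Arsa (0.16) and Pea15a (0.17). The profiles of Il10ra and Il10rb vary less than those of the cytokines (SD 1.23 and 1.10, against 4.88 for Il10 and 5.41 for Il24), so smaller differences come with them.

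Over the 6 eosinophil libraries the gene nearest to IL10 was MPEG1 (0.14), a macrophage gene, at 8.12 and 2.80 FPKM on average without and with amphiregulin, followed by CXCR1 (0.16), LHFPL2 (0.17), RASGEF1B (0.20) and FAM82A2 (0.20). IL24 was nearest to IL8 (0.26), MIR4426 (0.29), CD96 (0.31), RPL36A (0.31) and TDP2 (0.32). IL10RA was nearest to CTNS (0.09), the cystine transporter of lysosomes, at 25.3, 20.4 and 35.4 FPKM without and 43.6, 47.1 and 53.2 FPKM with amphiregulin, and to IKZF4 (0.11), CPT1A (0.14), BCKDK (0.16) and MOB3C (0.16). IL10RB was nearest to CCNL2 (0.07), CDKN1B (0.07), SCYL3 (0.07), CEBPD (0.08) and ZBTB4 (0.08).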

How the data were processed

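The authors deposited 1 table per library with FPKM values per gene, made with Cufflinks 2.0.2 after TopHat 1.3.2 and Bowtie 0.12.8, with mm10 as the build, per the submitters' processing notes. For the human symbols of the eosinophil tables these notes name no build. RNA was extracted with TRIzol and libraries were made with a stranded mRNA kit, per the labels' protocols. Total depth is unknown. Relative depth, from the commonest ratio of values under 0.2 FPKM, ran from 0.67 to 1.34 in Th2 cells, 0.36 to 1.0 in eosinophils and 0.58 to 1.0 in lung. Small RNA features held 12.09 to 21.36, 20.03 to 38.42 and 3.99 to 5.12% of all FPKM.

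Entries were summed per symbol (240 mouse and 45 human symbols had several), 138 human symbols were left out, and 1 was added to the listed starts. Samples were grouped by their labels. limma 3.58.1 (R 4.3.3, trend) was fitted on log2(FPKM + 1), which understates changes of low genes, over genes with at least 1 FPKM in at least 3 of the 6 libraries, with Benjamini-Hochberg adjustment and a threshold of 0.05. The fit was also run on simulated data with independent noise in each library. Those data held no paired or near-identical libraries, so they do not test how the fit handles such features here. Members under the filter had an exact permutation test, whose smallest p is 0.1. The members and gene lists were chosen with earlier results of these data known. Some genes that belong to these lists are not reported here. Genes were named by rule: the members, up to 4 genes of smallest p per list (or the highest where none was called), the 5 genes most like each member, and genes within 200 kb. Ones named outside this rule are Maf, Egr2, Bcl6, Il20ra, Il20rb, Il22ra1, Il22, Il28a, Il28b, Il21r, Cxcr5, Foxp3, SOCS1, EGR2 and the cell markers, chosen after their values were seen.

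Eosinophil libraries of equal number deviated together (r of 0.398, 0.356 and 0.669, above 0.1), so their numbers were taken as pairs. Numbers 2 and 3 set against each other also passed that limit (r of 0.308 and 0.28), while unequal numbers with 4 gave -0.505 to -0.427. The check thus sets number 4 apart and cannot say whether 2 pairs with 2 and 3 with 3. The pairing comes from this check, not from the labels.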

Additional observations from a re-analysis of the deposited data

How the results depend on the processing

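With IL-33 in Th2 cells, Il10 and Il10rb kept their direction and call in all 18 alternatives (log2 difference 3.22 to 4.64 and 0.82 to 1.01). With libraries 1 and 3 averaged, and 2 and 4, chosen after seeing the data, 3 members were called, and Il24 (1.62, adjusted p = 0.0613) and Il21 (2.18, 0.105) were lost. Il21 was also lost with a filter at 5 FPKM (1.66, 0.0501), no filter (1.66, 0.104), no trend (1.66, 0.0513) and pseudocounts of 0.1 (1.78, 0.0528) and 0.5 (1.72, 0.0506). Leaving out 1 library gave 1.14 to 1.99 for Il21 (adjusted p = 0.0461 to 0.103), with 4 to 5 members called, and libraries 1 to 4 alone gave 0.63 (0.00186), the lowest of the 18 values. Il10ra was lost with the spread of 12 mouse libraries (0.72, 0.0534). The cause of these losses was not tested. No paired analysis was possible by number in the Th2 cells because no library number recurs between the groups. With the title spelling (libraries 1 to 4 against 5 and 6) as a block, added after seeing the data, all 5 members were called, Il21 with an adjusted p of 0.0441. In the eosinophils the replicate block called 0 members and changed no member's call, but called 4 pathway genes against 0, and called 141 genes in all against 26. With the block, leaving out number 4 gave 2 members, IL10 (-1.47, 0.00114) and IL24 (-1.08, 0.0284), in a fit that called 809 of 13069 genes. Leaving out number 2 or number 3 gave 0 members. Leaving out small RNA features, also with the block, gave 1, IL10RA (0.84, 0.0391), with 204 of 13921 genes called. These alternatives were added after seeing the data. In the lung the numbers did not pair (r of -0.286, -0.116 and -0.243); the replicate block gave Il10ra -0.51 and Il10rb -0.12, as without it, with 0 members called, and 3 genes in all against 13. Without dGATA library 1, Il10 went from -0.23 to 0.00598, also with the 12-library spread, and leaving out any 1 lung library gave -0.48 to 0.00598. Depth is not known, so values under 1 FPKM have no counting interval.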
